A study of Mus musculus with 8 samples.

Results

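Hmga1, Hmga2, Igf2bp1, Igf2bp2, Igf2bp3, En1 and Lin28b are developmental genes, most of them far more active in the embryo than in adult tissue, that carcinomas often express again. They were taken by symbol, and all 7 have a row among the 27775 gene rows of each of 2 tables of single-cell counts. They were chosen by the pattern of their measured counts over the cell groups of these same tumors, so the levels and ratios given here describe them and carry no test. The cells came from 2 pancreatic ductal adenocarcinomas of untreated KPC mice, 1 labelled as of medium size and 1 as of large size, dissociated to single cells and captured with the droplet method of 10x Genomics (Chromium, 3′ chemistry v2). KPC mice carry, among their alleles, LSL-Trp53R172H/+ and Pdx-1-Cre, in which the Pdx1 promoter drives Cre recombinase in the pancreatic lineage and Cre switches on mutant Trp53. Both tumors carry these alleles, and no tissue without them was analysed here. The labels name 4 technical replicates a tumor, and 1 table pools them. With 1 sample of each size, size cannot be told apart from the animal or the library.

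The HMGA proteins are small chromatin proteins that bind AT-rich DNA by their AT-hooks and bend it for transcription factors. The IGF2BP proteins bind mRNAs, and LIN28B blocks the maturation of the let-7 microRNAs, which in turn repress Hmga2, Igf2bp1 and Lin28b through sites in the 3′ untranslated region (UTR). Engrailed-1, the product of En1, is a homeobox transcription factor of the developing midbrain, hindbrain and skin. HMGA2 is known in pancreatic carcinoma as a protein of poorly differentiated, mesenchymal-like tumor cells.

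The medium size tumor has 20301669 UMIs (unique molecular identifiers, which count captured mRNA molecules rather than their copies) in 2812 cells, and the large size tumor has 2239012 UMIs in 1533 cells. The median cell has 5456.5 UMIs in the medium and 1037 UMIs in the large size tumor, and 5 cell barcodes occur in both tables. Levels are UMIs summed over a group of cells and scaled to a total of 1000000 UMIs for that group (CPM), with an exact Poisson interval at the 95% level. Intervals cover counting error only, not the variation between animals. Cells were clustered without these 7 genes, and clusters were named from marker genes. In the medium size tumor 2330 cells (82.9%) in clusters 1 to 8 are epithelial-like, 240 are monocyte/macrophage-like, 67 fibroblast-like and 39 endothelial-like, and 136 cells in clusters 10 and 12 have no class. In the large size tumor 1219 cells (79.5%) are epithelial-like, 253 monocyte/macrophage-like, 50 fibroblast-like and 11 endothelial-like. Of the large size tumor's epithelial-like clusters, cluster 4 is led by genes of absorptive intestine (Fabp1, Guca2b), cluster 6 by genes of secretory intestine (Tff3, Muc2) and cluster 9, of 18 cells, by Upk3a and Ly6d, so values are also given for the 832 epithelial-like cells without them. Cluster 7 of the medium and cluster 1 of the large size tumor take the epithelial-like name from only 3 of 11 markers (Krt8, Krt18 and Cdh1 in the medium, Krt8, Krt18 and Tspan8 in the large size tumor). Their Krt18 level is 2975 CPM in cluster 7 of the medium size tumor, against 242 CPM in its macrophage-like cluster 9, 443 CPM in its fibroblast-like cluster 11 and 1413 CPM in its endothelial-like cluster 14, and 1056 CPM in cluster 1 of the large size tumor, against 35.7 CPM in its macrophage-like cluster 2 and 235 CPM in its fibroblast-like cluster 8. Epcam, which is not among those 3 markers, is not highest there. It is 201 CPM in cluster 7 of the medium size tumor against 81.1 CPM in cluster 9 and 665 CPM in cluster 14, and 86.3 CPM in cluster 1 of the large size tumor against 76.5 CPM in cluster 2 and 88.0 CPM in cluster 8. Cldn7 and Elf3 have 2 UMIs each in cluster 1 of the large size tumor. The endothelial-like cluster 14 of the medium size tumor, in the comparison group, also meets 3 of the 11 epithelial markers (Cdh1, Spint2 and Muc1), beside 11 endothelial ones. The epithelial-like name of these 2 clusters therefore rests on few genes.

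The let-7 microRNAs are shown because 6 of the 7 genes hold a match to their seed. Of 11 mature let-7 family sequences in RefSeq, 10 share the seed GAGGUAG at bases 2 to 8, and mmu-let-7j has GAGGUAU. Mature microRNAs themselves were not measured by this assay. The sequences are given 5′ to 3′ with the seed in capitals, and the positions are those of RefSeq on GRCm38.p6. The copy of let-7a listed lies at chr13:48538239-48538260 on the minus strand, and miR-98 lies at chrX:151913229-151913250 on the plus strand.
mmu-let-7a-5p: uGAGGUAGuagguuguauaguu
mmu-let-7g-5p: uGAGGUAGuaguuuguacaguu
mmu-miR-98-5p: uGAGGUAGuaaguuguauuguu
mmu-let-7j: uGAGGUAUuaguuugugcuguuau

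In 1 annotated 3′ UTR of each gene (GENCODE M21, GRCm38), the letters CTACCTC, the complement of the seed on the mRNA's strand, occur 4 times in Hmga2 (3014 bases), 4 times in Igf2bp1 (6337 bases) and 4 times in Lin28b (4445 bases). They occur once each in Hmga1 (1183 bases), Igf2bp2 (1784 bases) and Igf2bp3 (2119 bases), and not in the 803 bases of En1. Of 21020 genes' 3′ UTRs, 9.02% hold a match. Among UTRs of like length, where the shorter is at least 0.8 times as long as the longer, a match is held by 16.1% for Hmga2, 34.4% for Igf2bp1, 24.4% for Lin28b, 8.23% for Hmga1, 12.1% for Igf2bp2 and 13.3% for Igf2bp3. As many as 4 matches are held by 0.123% of the UTRs of Hmga2's length, 0.331% of those of Igf2bp1's length and 0.295% of those of Lin28b's length. A match of letters is a description and not a shown binding site. The 4 matches of Hmga2 and 1 of each other gene are printed on the mRNA's strand, with the letters that pair with the seed in capitals. Those of Hmga2 lie on the minus strand at chr10:120364224-120364253, chr10:120362987-120363016, chr10:120362549-120362578 and chr10:120361691-120361720, in the order given.
Hmga2, site 1: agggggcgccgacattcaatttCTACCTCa
Hmga2, site 2: caataatccccactcctcaataCTACCTCt
Hmga2, site 3: ggacttcctgatttgcaaggaaCTACCTCc
Hmga2, site 4: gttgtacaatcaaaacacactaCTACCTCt
Igf2bp1, chr11:95961778-95961807, minus strand: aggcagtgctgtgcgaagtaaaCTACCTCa
Igf2bp2, chr16:22059473-22059502, minus strand: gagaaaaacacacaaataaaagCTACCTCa
Igf2bp3, chr6:49086787-49086816, minus strand: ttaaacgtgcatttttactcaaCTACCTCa
Lin28b, chr10:45381022-45381051, minus strand: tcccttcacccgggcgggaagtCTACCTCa
Hmga1, chr17:27563270-27563299, plus strand: catcttctcctctgttcacaaaCTACCTCt

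Hmga2 had the most UMIs of the 7 genes in each tumor. The medium size tumor has 3803 UMIs of Hmga2 in 1002 cells, 600 of En1 in 397 cells, 582 of Igf2bp2 in 466 cells, 166 of Igf2bp3 in 158 cells, 110 of Igf2bp1 in 93 cells and 57 of Hmga1 in 57 cells. These sums are, for the large size tumor, 279, 34, 118, 16, 24 and 1 UMIs in the same order. Lin28b, the let-7 antagonist, has 0 UMIs in the medium size tumor, which allows a level of up to 0.148 CPM (3 counts over all cells), and 1 UMI in the large size tumor. With 0 and 1 UMIs no cell group can be described for Lin28b, and its paralog Lin28a likewise has 0 UMIs in the medium and 1 in the large size tumor. Sums of different genes are not compared as transcript levels, since 3′ counts depend on each gene's 3′ end.

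Hmga2 (chr10:120361275-120476469, minus strand) was found mainly in the medium size tumor's epithelial-like cells, and unevenly among them. Its level was 205 CPM (interval 199 to 212) in epithelial-like and 41.5 CPM (33.5 to 50.9) in all other cells. Among the 8 epithelial-like clusters it was 640 CPM (605 to 678) in cluster 7, 370 CPM (345 to 395) in cluster 2 and 329 CPM (303 to 358) in cluster 8. Cluster 7 is led by Inhba, Bmp2 and Ptgs2, cluster 2 by Mcpt8, Cldn6 and En1, and cluster 8 by Krt17, Cldn4 and Tnc. The level was 146 CPM (132 to 161) in cluster 5, led by Yap1 and Birc2, 124 CPM (113 to 136) in the cycling cluster 4 and 67.2 CPM (58.2 to 77.3) in cluster 1, led by the gastric pit genes Gkn1, Gkn2 and Gkn3. The lowest epithelial-like levels were 25.2 CPM (17.6 to 35.1) in cluster 6, led by Lcn2 and Dmbt1, and 18.1 CPM (12.2 to 25.8) in cluster 3, led by Tff3 and Reg1. The intervals of clusters 2 and 8, of clusters 5 and 4, and of clusters 6 and 3 overlap, and the other steps in this order are wider than counting error.

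Detection followed the same pattern at equal depth. With each cell thinned to 2500 UMIs, a UMI of Hmga2 was found in 67.7% (61.2 to 73.7, exact binomial interval) of cluster 7 cells, 50.2% of cluster 8, 44.8% of cluster 2, 23.5% of cluster 5, 21.3% of cluster 4, 12.5% of cluster 1, 4.70% of cluster 6 and 4.30% of cluster 3. The share in the cycling cluster 4 was 49.3% before thinning, where the median cell has 9742 UMIs. In the monocyte/macrophage-like cells, which should lack the gene, the thinned share was 1.25% (0.259 to 3.61), and the median cell has 3516 UMIs against 5978.5 UMIs in the epithelial-like cells. The intervals of clusters 3 and 6, 2.31 to 7.25 and 2.37 to 8.26, reach into the range of this background.

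Single cells of the medium size tumor differed widely in Hmga2. The gene had 1 UMI in 327 cells and 10 or more in 81 cells, with a maximum of 43, and the 10% of cells with the most held 63.7% of its UMIs. En1 reached at most 9 UMIs in a cell, Igf2bp2 6, Igf2bp1 3, Igf2bp3 2 and Hmga1 1. These counts were not thinned, and cells held from 2704 to 47440 UMIs, so they also carry differences in depth.

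Outside the medium size tumor's epithelial-like cells, Hmga2 was 87.4 CPM (58.5 to 125) in the fibroblast-like cells, with 29 UMIs in 17 of 67 cells, and 86.2 CPM (53.4 to 132) in the endothelial-like cells, with 21 UMIs in 8 of 39. It was 6.46 CPM (2.37 to 14.1) in the monocyte/macrophage-like cells. Of the clusters without a class, cluster 12, which holds 10 of 11 epithelial and 9 of 11 monocyte/macrophage markers, had 89.2 CPM (59.7 to 128) and cluster 10 had 18.1 CPM (7.28 to 37.3). For scale, Hmga2 had 61.7 UMIs (37.5 to 100) per 100 UMIs of the epithelial gene Epcam in the fibroblast-like cells, 13.0 (7.81 to 20.5) in the endothelial-like, 6.52 (2.33 to 14.7) in the monocyte/macrophage-like and 18.8 (18.2 to 19.5) in the epithelial-like cells. Over the epithelial-like clusters this ratio ran from 0.747 in cluster 3 to 319 in cluster 7, with 58.0 in cluster 2 and 72.7 in cluster 5, so the fibroblast-like value lies above the epithelial-like cells as a whole but within the range of their clusters, while the interval of the endothelial-like cells includes the epithelial-like value and that of the monocyte/macrophage-like cells lies below it. The 11 epithelial markers sum to 1277 CPM in the fibroblast-like cluster 11, 4217 CPM in the endothelial-like cluster 14 and 640.7 to 665 CPM in the macrophage-like clusters, against 6015 to 16965 CPM in clusters 1 to 8, and their part in these Hmga2 levels was not tested. Hmga2 had 0 UMIs in the large size tumor's 50 fibroblast-like cells, which allows up to 44.0 CPM.

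**Figure D1:**
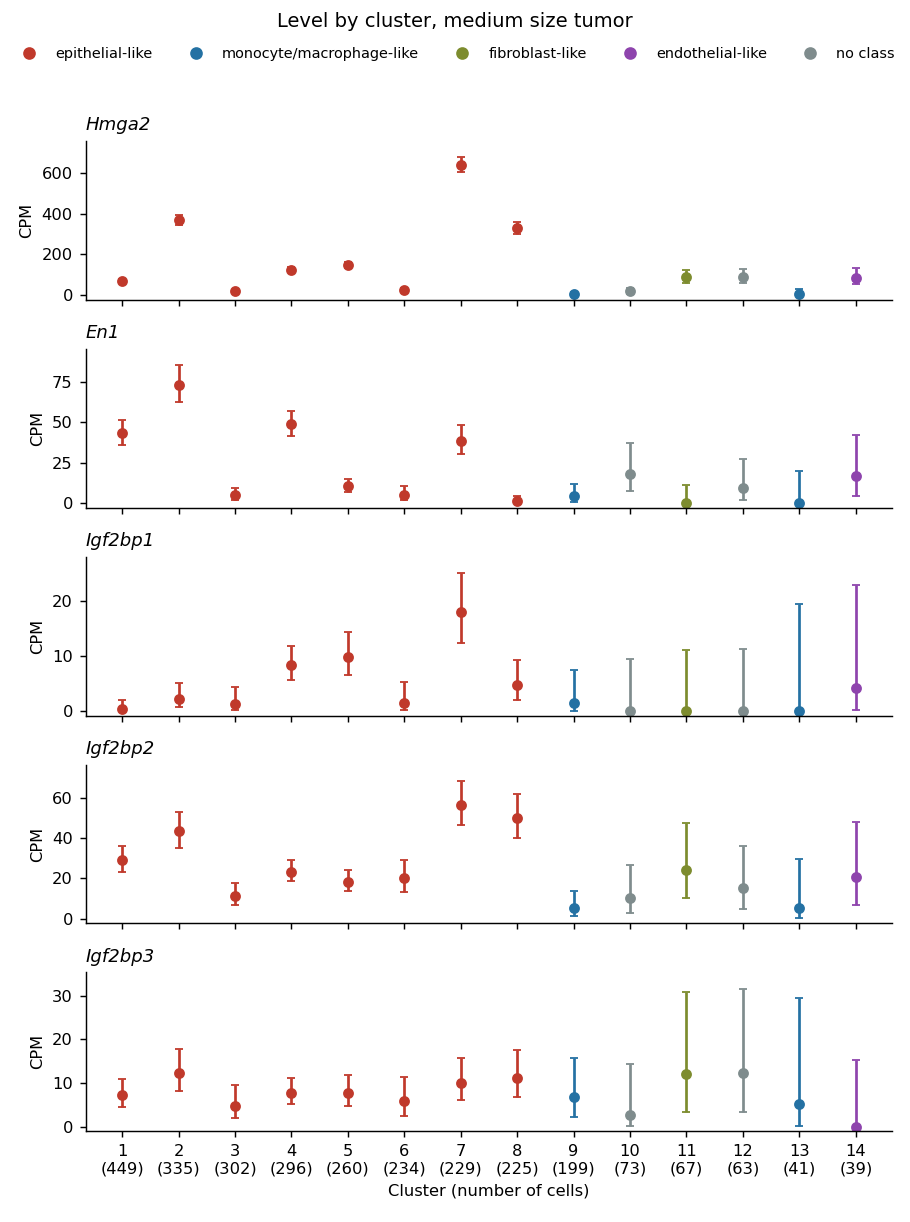
Level in CPM (vertical axes, linear) of 5 genes in the 14 clusters of the medium size tumor (horizontal axis, with cells per cluster), with points for the level, bars for the exact 95% Poisson interval and colors for the cell class. Hmga2 is highest in cluster 7 at 640 CPM, En1 in cluster 2 at 73.3 CPM, and Igf2bp3 lies between 4.82 and 12.3 CPM in the 8 epithelial-like clusters.

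All 279 UMIs of Hmga2 in the large size tumor fell in 4 of its 7 epithelial-like clusters. The level was 323 CPM (272 to 380) in cluster 1, led by Ggct, Ramp1 and Nrn1, 163 CPM (133 to 199) in the cycling cluster 5, 109 CPM (69.9 to 162) in cluster 3 and 47.0 CPM (25.7 to 78.9) in the gastric pit cluster 7. The intervals of clusters 5 and 3 overlap, as do those of clusters 3 and 7, and cluster 1 lies above the other 3. No UMI was found in clusters 4, 6 and 9, which together allow up to 7.60 CPM, nor in the cells that are not epithelial-like, which allow up to 10.7 CPM. Over all epithelial-like cells the level was 142 CPM (126 to 160), and 178 CPM (158 to 201) without clusters 4, 6 and 9.

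**Figure D2:**
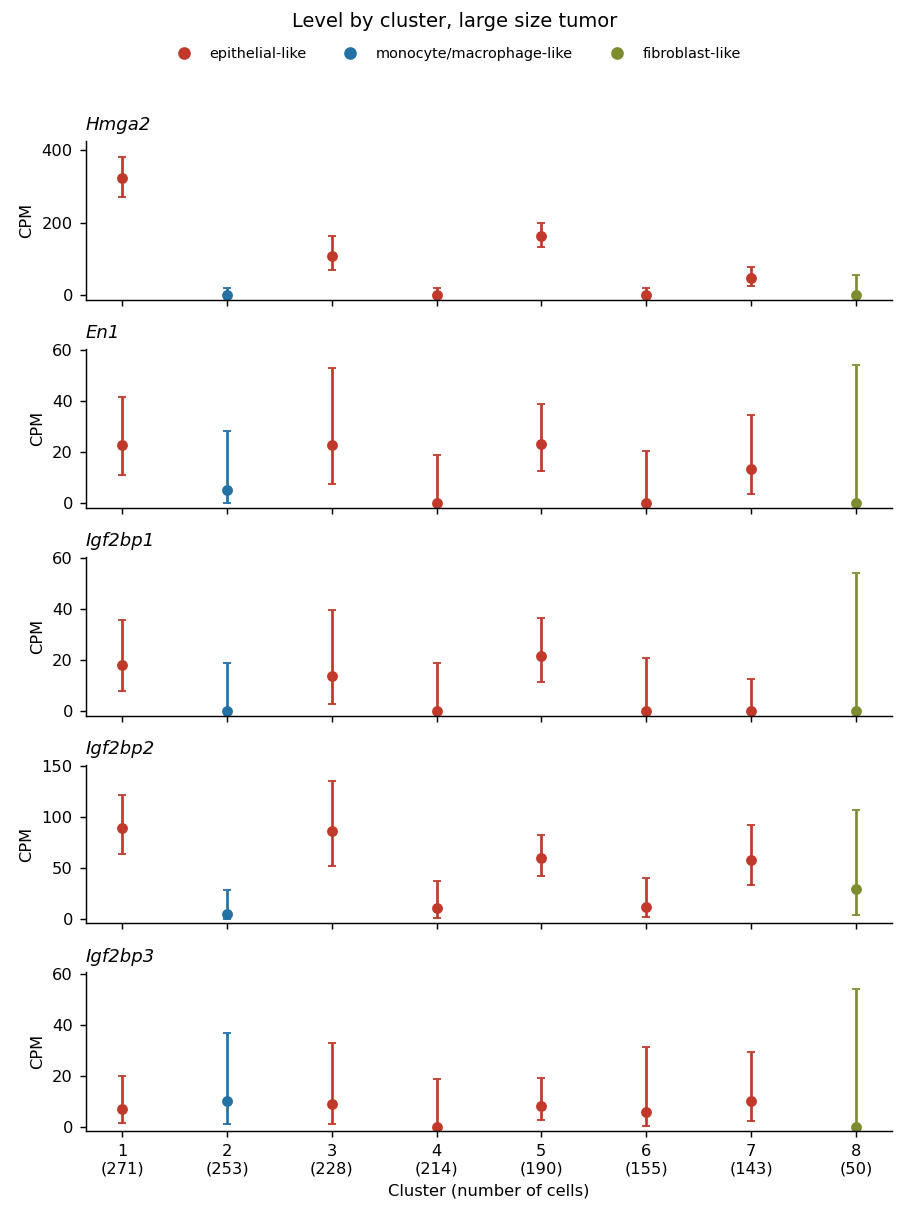
Level in CPM (vertical axes, linear) of the same 5 genes in clusters 1 to 8 of the large size tumor (horizontal axis, with cells per cluster), with exact 95% Poisson intervals, and clusters 9 and 10 of 18 and 11 cells not drawn. Hmga2 reaches 323 CPM in cluster 1 and has 0 UMIs in clusters 2, 4, 6 and 8, and the intervals of the other 4 genes mostly overlap.

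En1 (chr1:120602418-120607992, plus strand) shared clusters 2, 4, 1 and 7 with Hmga2 and was all but missing from cluster 8. In the medium size tumor its level was 73.3 CPM (62.6 to 85.3) in cluster 2, 48.8 CPM (41.8 to 56.7) in cluster 4, 43.3 CPM (36.1 to 51.6) in cluster 1 and 38.6 CPM (30.2 to 48.5) in cluster 7. Cluster 2 lies above the others, and the intervals of clusters 4, 1 and 7 overlap one another. It was 10.2 CPM (6.80 to 14.8) in cluster 5, 5.04 CPM in cluster 6 and 4.82 CPM in cluster 3. In cluster 8, where Hmga2 was 329 CPM, En1 had 2 UMIs in 225 cells, 1.18 CPM (0.142 to 4.25), and at 2500 UMIs a cell none of the 225 cells held a UMI of En1, which allows up to 1.33% of such cells to hold a UMI at this depth and does not limit how many express the gene. The cells that are not epithelial-like had 7.67 CPM (4.47 to 12.3), with 3 UMIs (3.23 CPM) in the monocyte/macrophage-like and 0 in the fibroblast-like cells. The endothelial-like cells, at 16.4 CPM (4.48 to 42.1) from 4 UMIs, and cluster 10 without a class, at 18.1 CPM (7.28 to 37.3) from 7 UMIs, lay within the range of the epithelial-like clusters. At equal depth a UMI of En1 was found in 11.9% of cluster 2, 11.1% of cluster 4, 10.5% of cluster 7 and 9.58% of cluster 1 cells, against 0.417% (0.0105 to 2.30) of the monocyte/macrophage-like cells.

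In the large size tumor En1 had 34 UMIs, of which 33 lay in the epithelial-like clusters 1, 3, 5 and 7. Its level was 22.7 CPM (10.9 to 41.8) in cluster 1, 22.7 CPM (7.38 to 53.0) in cluster 3, 23.1 CPM (12.6 to 38.8) in cluster 5 and 13.4 CPM (3.66 to 34.4) in cluster 7. These clusters did not differ beyond counting error. As for Hmga2, no UMI of En1 was found in clusters 4, 6 and 9.

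**Figure D3:**
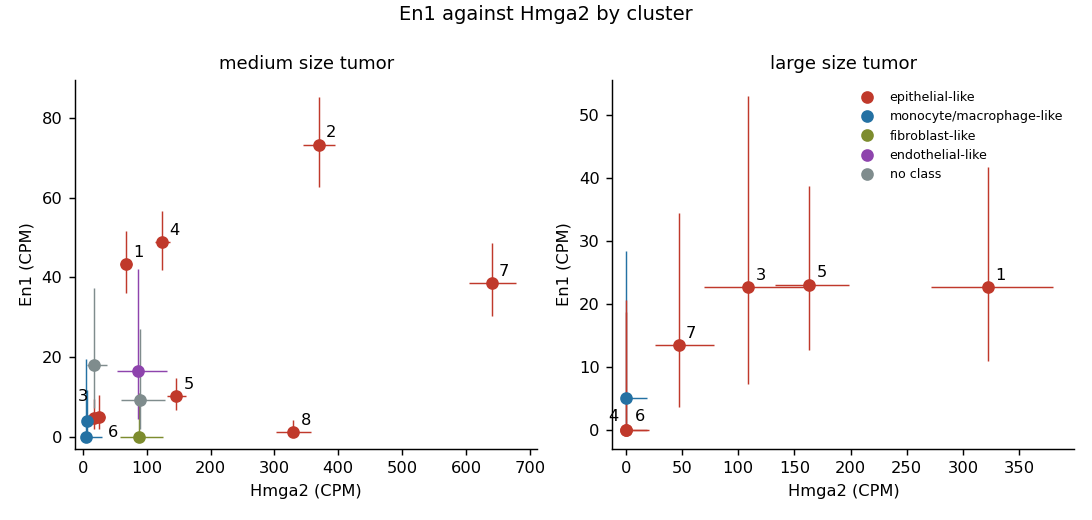
En1 (vertical axis, CPM) against Hmga2 (horizontal axis, CPM) by cluster, with exact 95% Poisson intervals and cluster numbers at the epithelial-like points, for all 14 clusters of the medium size tumor and the 7 clusters of over 100 cells of the large size tumor. In the medium size tumor cluster 8 combines 329 CPM of Hmga2 with 1.18 CPM of En1, while cluster 2 has 370 and 73.3 CPM.

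The 3 Igf2bp genes encode related RNA-binding proteins but differed in where they were found. Igf2bp1 (chr11:95957163-96005940, minus strand) had 108 of its 110 UMIs in the medium size tumor's epithelial-like cells, at 5.97 CPM (4.90 to 7.21). Its level was 17.97 CPM (12.4 to 25.1) in cluster 7, 9.87 CPM (6.50 to 14.4) in cluster 5, 8.28 CPM (5.55 to 11.9) in cluster 4 and 4.71 CPM (2.03 to 9.27) in cluster 8. It was 2.19 CPM (0.713 to 5.12) in cluster 2 and 0.341 to 1.44 CPM in clusters 1, 3 and 6. The order thus set clusters 7, 5 and 4 above cluster 2, which ranked high in Hmga2 and En1, with the intervals of cluster 7 and cluster 5 overlapping. Its 24 UMIs in the large size tumor lay in clusters 5 (21.4 CPM, 11.4 to 36.7), 1 (18.2 CPM, 7.85 to 35.8) and 3 (13.6 CPM, 2.81 to 39.8), with overlapping intervals, and none in the gastric pit cluster 7, which allows up to 10.1 CPM.

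Igf2bp2 (chr16:22059009-22163299, minus strand) was spread more widely. In the medium size tumor its level was 56.5 CPM (46.3 to 68.3) in cluster 7, 49.99 CPM (39.9 to 61.8) in cluster 8 and 43.5 CPM (35.3 to 52.9) in cluster 2, the same 3 clusters that led in Hmga2, with intervals that overlap. It was 29.01 CPM (23.2 to 35.9) in cluster 1, 23.4 CPM in cluster 4, 20.2 CPM in cluster 6, 18.3 CPM in cluster 5 and 11.5 CPM (6.90 to 17.9) in cluster 3. The fibroblast-like cells had 24.1 CPM (10.4 to 47.5), within the range of the epithelial-like clusters, and the monocyte/macrophage-like cells 5.39 CPM (1.75 to 12.6). In the large size tumor the level was 88.6 CPM (63.0 to 121) in cluster 1, 86.3 CPM (52.0 to 135) in cluster 3, 59.4 CPM (41.6 to 82.2) in cluster 5 and 57.1 CPM (33.3 to 91.4) in cluster 7, which did not differ beyond counting error. The intestinal clusters 4 and 6 had 2 UMIs each (10.2 and 11.2 CPM).

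Igf2bp3 (chr6:49085223-49214957, minus strand) showed no cell group that stood apart. Its level was 8.35 CPM (7.07 to 9.79) in the epithelial-like and 6.77 CPM (3.79 to 11.2) in the other cells of the medium size tumor, and 4.82 to 12.3 CPM over the 8 epithelial-like clusters. At equal depth a UMI was found in 2.49% (1.90 to 3.21) of the epithelial-like and 2.08% (0.680 to 4.79) of the monocyte/macrophage-like cells, with overlapping intervals. The source of the UMIs in the monocyte/macrophage-like cells was not tested. It had 16 UMIs in the large size tumor, 14 of them in epithelial-like cells.

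Hmga1 (chr17:27556497-27563674, plus strand), the paralog of Hmga2, had 57 UMIs in the medium and 1 UMI in the large size tumor, at most 1 UMI a cell. Its level was 2.82 CPM (2.10 to 3.71) in the medium size tumor's epithelial-like and 2.71 CPM (0.994 to 5.89) in its other cells, which do not differ beyond counting error. Its counts are uncertain, since reads that match more than 1 place in the genome may be discarded or counted elsewhere, so a low count does not show a low level of Hmga1.

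In the comparison of epithelial-like with all other cells, a gene was counted as different at a ratio of 2 or more with 1 UMI added to each sum. Hmga2 (ratio of CPM 4.94, 4.02 to 6.15), En1 (4.20, 2.60 to 7.26), Igf2bp1 (6.62, 1.79 to 55.3, from 2 UMIs in the other cells) and Igf2bp2 (2.52, 1.71 to 3.86) were higher in the medium size tumor's epithelial-like cells, which is 4 of the 7 genes, beside 11.9% of the 11205 genes with 50 or more UMIs. None of the 7 was lower, beside 12.2%. Igf2bp3 (1.23, 0.724 to 2.26) and the row Hmga1 (1.04, 0.447 to 2.97) were not, and Lin28b could not be compared. The genes were picked with such levels known, so nothing is read from the count against the background. Without cluster 7 the same 4 genes were counted, with Hmga2 at 3.68. When the 5% of cells with the highest doublet scores were removed and the cells clustered again, cluster 7 kept 2 epithelial markers, lost its class and passed to the other cells, and the count fell to 0 with Hmga2 at 0.471.

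In the large size tumor Hmga2 had 0 UMIs in the cells that are not epithelial-like. With these set to a floor of 3 counts, Hmga2 was 13.3-fold higher in the epithelial-like cells (exact interval of the ratio from 10.8 up). Igf2bp2 had a ratio of 5.49 (1.83 to 27.0, from 3 UMIs in the other cells). Both genes with 50 or more UMIs were thus higher, beside 19.5% of the 4829 genes with as many, and none was lower, beside 9.73%. En1 (4.72, 0.791 to 192, from 1 UMI in the other cells) and Igf2bp1 (3.58 with 1 UMI added, from 24 UMIs against 0) also passed, on fewer than 50 UMIs each. For Igf2bp1 the ratio was 1.14 at the floor, with an exact interval from 0.861 up, so both intervals include 1. Igf2bp3 did not pass (1.00, 0.230 to 9.08), so 4 of the 7 genes were counted in all. Without clusters 4, 6 and 9 Hmga2 was 16.7-fold higher at that floor (exact interval of the ratio from 13.5 up) and Igf2bp2 had a ratio of 6.63, beside 18.3% of genes. This comparison too rests on the class of 1 cluster. With a finer clustering (resolution 1.2), cluster 1 split into 2 clusters of 178 and 85 cells with 306 and 427 CPM of Hmga2, which fell to 2 epithelial markers and passed to the other cells, and the count went from 4 to 0. With each cell classed by its own markers the count was 0 too, with Hmga2 at 1.55. Without cluster 1 altogether 4 genes were again counted, with Hmga2 at 25.5 (1 UMI added).

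Among the medium size tumor's epithelial-like cells, cluster 7, chosen as the highest in Hmga2, was set against the other 7 clusters. Hmga2 was 640 against 154 CPM (ratio 4.15, 3.87 to 4.45), which is what chose the cluster. Igf2bp1 was 17.97 against 4.57 CPM (3.93, 2.54 to 5.98) and Igf2bp2 56.5 against 27.7 CPM (2.04, 1.64 to 2.53), so 3 of the 7 genes were counted as higher, beside 8.35% of 10676 genes, and none as lower, beside 11.3%. En1 (1.22, 0.945 to 1.57) and Igf2bp3 (1.23, 0.719 to 2.00) were not. With 10 CPM added both calls ended, with Igf2bp1 at 1.92 and Igf2bp2 at 1.77, and 1 gene, Hmga2, was counted. With cells thinned to equal depth Igf2bp2 was at 1.63, below the threshold, while Igf2bp1 was at 9.17 and Igf2bp3 gained a call at 2.29. In cluster 2, taken instead of cluster 7, En1 was at 2.80 and Igf2bp1 at 0.4003, so the clusters high in Hmga2 carried different companions.

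Cluster 7 also differed in the genes of other states. Of 11 mesenchymal genes with 50 or more UMIs, 9 were higher in cluster 7 than in the other epithelial-like cells and none lower, at a median ratio of 3.97 beside 1.05 over all genes. Among them were the transcription factors Zeb1 (3.95, 3.16 to 4.92) and Zeb2 (6.74, 4.77 to 9.49), N-cadherin, Cdh2 (4.80, 4.07 to 5.65), and vimentin, Vim (2.14, 2.06 to 2.23). All 7 gastric pit genes were lower (median ratio 0.117), as were 11 of 13 cycling genes (median 0.126) and 6 of 6 secretory genes (median 0.107). Of all genes compared, 8.35% were higher and 11.3% lower. The other epithelial-like cells include clusters 1, 3, 4 and 6, which are led by genes of these lists. The lower ratios are therefore not shown to be particular to cluster 7. The 3 epithelial tumor markers listed apart, Epcam (0.168, 0.151 to 0.186), Krt19 (0.133, 0.121 to 0.146) and Prom1 (0.151, 0.0943 to 0.230), were lower too. The 11 monocyte/macrophage markers sum to 509 CPM in cluster 7 and 202 to 307 CPM in the other epithelial-like clusters, against 26551 and 33999 CPM in the macrophage-like clusters. The 10 fibroblast markers sum to 44.4 CPM in cluster 7 and 26.3 to 45.4 CPM in the others, against 15107 CPM in the fibroblast-like cells. The part of such RNA in the result was not tested. In the large size tumor cluster 1, likewise the highest in Hmga2 (2.65, 2.08 to 3.37, against the other epithelial-like cells without clusters 4, 6 and 9), had all 4 mesenchymal genes with enough UMIs higher, Vim (2.43), Cdh2 (3.05), Fn1 (6.26) and Wnt5a (3.27), and Epcam (0.0755, 0.0532 to 0.104) and Krt19 (0.231, 0.159 to 0.325) lower, while Igf2bp2 (1.38, 0.912 to 2.07), Igf2bp1 (1.28, 0.473 to 3.16) and En1 (1.11, 0.472 to 2.42) were not counted as different, so that 1 of the 7 genes passed, beside 5.83% of 3668 genes, and none was lower, beside 6.46%.

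Between the tumors, Hmga2 in epithelial-like cells did not reach a ratio of 2, and Igf2bp1 was lower in the medium size tumor. Hmga2 was 205 CPM in the medium and 142 CPM in the large size tumor (ratio 1.44, 1.28 to 1.63), and the ratio was 1.15 (1.02 to 1.30) with clusters 4, 6 and 9 of the large size tumor left out, which lack the gene. At resolution 1.2, where cluster 1 of the large size tumor lost its class, Hmga2 was at 2.25 and En1 at 2.15, and both were counted as higher. Igf2bp1 was 5.97 against 12.3 CPM (0.487, 0.311 to 0.793) and Igf2bp2 30.7 against 58.7 CPM (0.523, 0.427 to 0.645), and without those clusters 0.389 (0.248 to 0.634) and 0.432 (0.352 to 0.535). En1 was 32.2 against 16.8 CPM (1.91, 1.35 to 2.81), and 1.53 (1.08 to 2.24) without those clusters. Igf2bp3 did not differ beyond counting error (1.17, 0.675 to 2.19). Igf2bp1 was the 1 gene counted as lower, beside 7.36% of 10879 genes, and Igf2bp2 joined it without the 3 clusters, beside 6.93%. Igf2bp1 lost this call with cells thinned (0.785), with 10 CPM added (0.718) and at resolution 1.2 (0.539). With cells thinned En1 (2.62) and Igf2bp3 (2.09) were counted as higher in the medium size tumor. The row Hmga1 was the 1 gene counted as higher (5.52, 0.948 to 222, from 1 UMI in the large size tumor), beside 18.9% of genes. These differences cannot be told apart from differences between animals, dissociations and libraries.

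**Figure D4:**
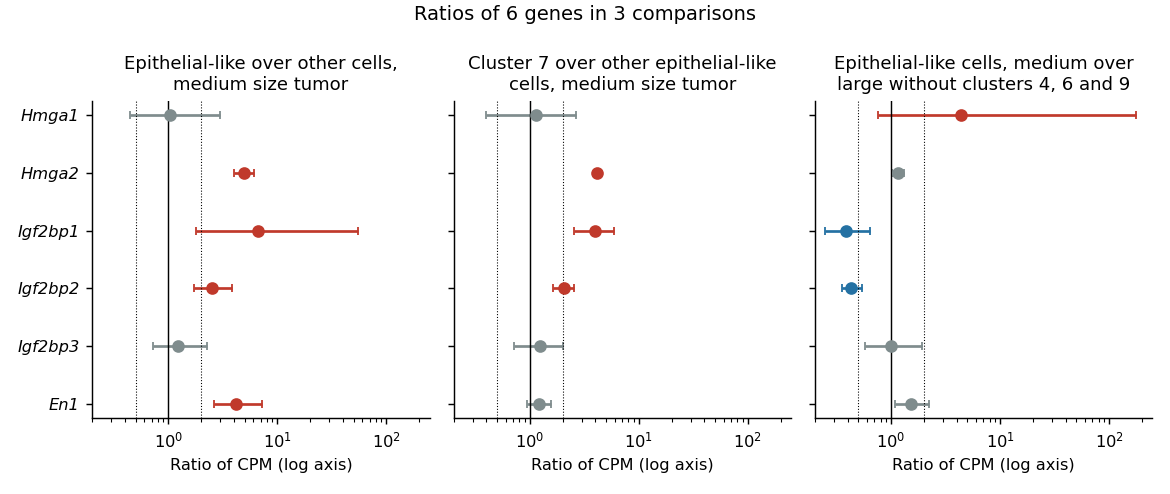
Ratio of CPM (horizontal, log axis) with its exact 95% interval for 6 genes in 3 comparisons, the last of them leaving out the large size tumor's clusters 4, 6 and 9, with a solid line at 1 and dotted lines at 0.5 and 2, and with red for genes counted as higher, blue as lower and grey as neither. Hmga2 and Igf2bp1 lie above 2 in the 2 comparisons within the medium size tumor, and Igf2bp1 and Igf2bp2 lie below 0.5 between the tumors, where the wide interval of the row Hmga1 rests on 1 UMI in the large size tumor.

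Cells with Hmga2 were compared with cells without it at 2500 UMIs a cell. In the medium size tumor's epithelial-like cells, En1 was found in 69 of 622 cells with a UMI of Hmga2 (11.1%, 8.73 to 13.8) and in 88 of 1708 cells without one (5.15%, 4.15 to 6.31). Within cluster 2 the shares were 18% (12.2 to 25.1) and 7.03% (3.79 to 11.7), which do not overlap. Within clusters 1, 4, 5 and 7 the share was also higher beside Hmga2, at 16.1 against 8.65%, 12.7 against 10.7%, 6.56 against 2.01% and 12.3 against 6.76%, but the intervals overlap. Igf2bp2 was found in 8.52% (6.45 to 11.0) of cells with and 5.56% (4.52 to 6.76) of cells without Hmga2, and Igf2bp1 in 1.61% (0.774 to 2.94) and 0.703% (0.364 to 1.22), with overlapping intervals. Within the clusters Igf2bp2 went both ways, at 10.97 against 5.41% in cluster 7, 8.67 against 9.73% in cluster 2 and 6.19 against 14.3% in cluster 8, with overlapping intervals. Over all epithelial-like cells the oncofetal tight junction gene Cldn6 was found in 42.1% (38.2 to 46.1) and 21.96% (20.01 to 24.0), and vimentin in 71.5% (67.8 to 75.1) and 43.9% (41.5 to 46.3). The large size tumor's 832 epithelial-like cells had Cldn6 in the opposite order, in 2.70% (0.329 to 9.42) of cells with and 4.88% (3.46 to 6.67) without Hmga2, with overlapping intervals. Within clusters the intervals of Cldn6 were apart in cluster 8 alone of the 6 clusters with over 50 cells with Hmga2, at 71.7% (62.4 to 79.8) and 50% (40.4 to 59.6). Those of vimentin were apart in cluster 1, at 55.4% (41.5 to 68.7) and 36.4% (31.6 to 41.4), and in cluster 2, at 80% (72.7 to 86.1) and 63.2% (55.9 to 70.2), while in cluster 7 the shares were 90.3 and 91.9%. Epcam, the epithelial adhesion gene, was found in 53.9% (49.9 to 57.8) and 72.7% (70.5 to 74.8) over all epithelial-like cells, but this order did not hold within clusters 1 (91.1 and 85.8%), 2 (55.3 and 53.5%), 7 (22.6 and 21.6%) and 8 (100 and 97.3%). It held in cluster 5, at 9.84% (3.70 to 20.2) and 28.6% (22.5 to 35.5), and in cluster 4, at 36.5 and 53.2% with overlapping intervals. The pooled shares thus also carry the differences between clusters. At 500 UMIs a cell, 74 cells of the large size tumor's epithelial-like clusters other than 4, 6 and 9 held a UMI of Hmga2 and 758 did not. En1 was found in 1.35% (0.0342 to 7.30) and 0.923% (0.372 to 1.89) of them, which does not separate the groups at this depth, and Epcam in 12.2% (5.71 to 21.8) and 29.9% (26.7 to 33.3). Within cluster 1 Epcam was found in 6.98 and 3.95%.

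**Figure D5:**
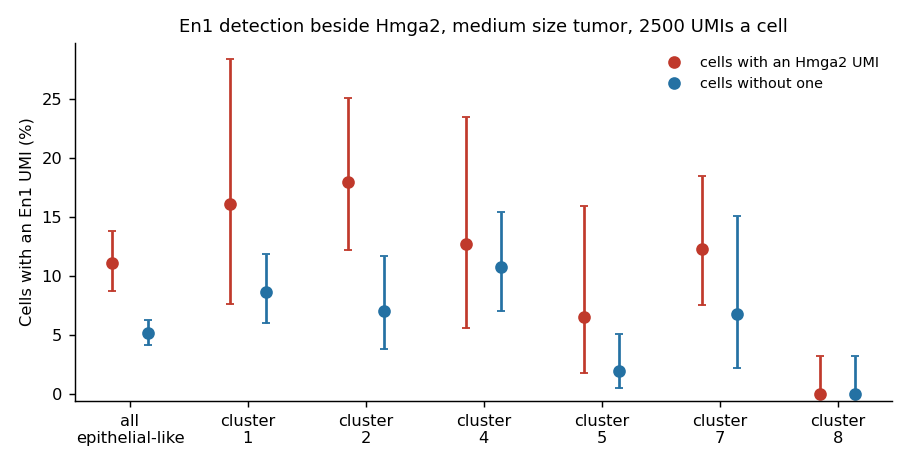
Share of cells with an En1 UMI (vertical axis, percent) among cells with and without an Hmga2 UMI at 2500 UMIs a cell, for all epithelial-like cells and 6 clusters of the medium size tumor, with exact 95% binomial intervals. The intervals are apart for all epithelial-like cells (11.1 and 5.15%) and for cluster 2 (18 and 7.03%), and both shares are 0 in cluster 8.

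The genes most like each of the 5 genes with 100 or more UMIs were found by Pearson's r of log2(CPM + 10) over the 14 clusters of the medium size tumor, which share a library and differ in depth, and are given as a description. For Hmga2 they were Tead2 (r = 0.957, and 0.792 over the 10 clusters of the large size tumor), a DNA-binding partner of YAP, then Ntan1, Ramp1, Dda1 and Paip2 (r from 0.930 to 0.946). Over the large size tumor's clusters r of these 4 was 0.650 to 0.729. For Igf2bp2 they were Isca2 (r = 0.935, and 0.370 in the large size tumor), Wdr60 (0.931 and 0.8004), Hmga2 itself (0.928 and 0.876), Ramp1 (0.925 and 0.786) and Ldlrad3 (0.917 and 0.802). For Igf2bp1 they were Mmp13, a collagenase (r = 0.881, and 0.426 in the large size tumor), Dynap (0.880 and 0.711), Nrn1 (0.843 and 0.913), Gm12603 (0.838 and 0.909) and Fgf13 (0.832 and 0.446). For En1 they were Timm21 (r = 0.881, and 0.489 in the large size tumor), Apob (0.851 and -0.178), Mcpt8 (0.830 and 0.858), a granule protease gene of basophils that also leads cluster 2, 1190005I06Rik (0.827 and 0.754) and Usp14 (0.822 and 0.367). For Igf2bp3 they were Prkaa1 (r = 0.881, and -0.00116 in the large size tumor), Rcor1 (0.869 and 0.633), Dok1 (0.850 and -0.360), Slc25a37 (0.849 and -0.211) and Ccdc6 (0.846 and 0.196). Over the medium size tumor's 8 epithelial-like clusters alone, r with Igf2bp3 was 0.446 for Prkaa1, 0.579 for Rcor1, 0.918 for Dok1, 0.627 for Slc25a37 and 0.554 for Ccdc6.

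The genes beside Hmga2 and En1 on their chromosomes mostly did not share their levels. In cluster 7, the 3 nearest protein-coding genes with 50 or more UMIs on each side of Hmga2 had ratios from 0.736 (Irak3) to 1.26 (Tmbim4) to the other epithelial-like cells, against 4.15 for Hmga2. In cluster 2, the 6 genes nearest En1 had ratios from 0.540 (Tmem37) to 1.04 (Ccdc93), against 2.79 (2.31 to 3.34) for En1. An exception was Msrb3 beside Hmga2 in cluster 2, at 2.35 (1.34 to 3.96) from 20 UMIs in the cluster, where Hmga2 was at 2.04. A further one was Ddx18 in cluster 4, at 1.83 (1.58 to 2.11), where its neighbour En1 was at 1.73 (1.44 to 2.07) and 3110009E18Rik, another neighbour, at 1.65 (0.9723 to 2.72) from 23 UMIs.

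Among related genes the same ratios were read. Of all genes with 50 or more UMIs, 11.9% were higher and 12.2% lower in the medium size tumor's epithelial-like cells. These shares were 8.35% and 11.3% in cluster 7, and 18.9% and 7.36% between the tumors. Of 7 genes of let-7 processing with 50 or more UMIs in the medium size tumor (the nucleases Drosha and Dicer1, Drosha's partner Dgcr8, the uridyltransferases Zcchc11 and Zcchc6, Dis3l2 and Ago2), none was counted as different in epithelial-like cells (median ratio 0.978 beside 1.11 over all genes), in cluster 7 (median 1.15 beside 1.05) or between the tumors (median 1.10 beside 1.11), though 1 was higher in the medium size tumor once clusters 4, 6 and 9 were left out of the large. Of 9 other oncofetal genes with enough UMIs in the medium size tumor, 2 were higher in epithelial-like cells, Cldn6 (6.83, 5.37 to 8.83) and the transcription factor gene Mycn (3.77, 1.43 to 14.0), and 3 were lower, the glypican Gpc3 (0.108), Plagl1 (0.464) and Arid3a (0.324), at a median of 1.26. Of 3 with enough UMIs in the large size tumor all were higher in its epithelial-like cells, beside 19.5% of all genes. Cldn6 was 6.82-fold higher with its 0 UMIs in the other cells set to a floor of 3 (exact interval of the ratio from 5.48 up). The others were Afp (5.92, 1.98 to 29.1, from 3 UMIs) and E2f5 (5.51, 1.47 to 46.3, from 2 UMIs). In the medium size tumor Cldn6 was 515 CPM in cluster 8 and 461 CPM in cluster 2, both high in Hmga2, but 116 CPM in cluster 7. Alpha-fetoprotein, Afp, was the 1 oncofetal gene higher in cluster 7 (2.95, 1.70 to 4.91).

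Of 7 HMGB and HMGN relatives of the HMGA proteins, Hmgb3 (2.99, 2.35 to 3.87) was higher in the medium size tumor's epithelial-like cells and Hmgn3 (0.173, 0.130 to 0.233) was lower, at a median of 1.27 beside 1.11 over all genes. Of all genes, 11.9% were higher and 12.2% lower in this comparison. In cluster 7 none of these relatives was higher and Hmgb2 (0.144), Hmgn2 (0.379) and Hmgn5 (0.424) were lower, at a median of 0.719 beside 1.05. Of all genes, 8.35% were higher and 11.3% lower in cluster 7. Hmgb2 is a leading gene of the cycling cluster 4, which is among the cells set against cluster 7. Of 9 mRNAs known to be bound by IGF2BP proteins, the cyclin gene Ccnd1 (3.11, 2.77 to 3.51) was higher in the epithelial-like cells and none was lower. In cluster 7 the prostaglandin synthase gene Ptgs2 was higher (20.3, 18.0 to 23.1). The proliferation gene Mki67 was lower, with 0 against 398 UMIs in cells that include the cycling cluster 4. Myc (1.62, 1.27 to 2.04) and Cd44 (1.75, 1.66 to 1.84) did not reach 2. Igf2, the mRNA for which the IGF2BP proteins are named, had under 50 UMIs. Of 6 partners or relatives of Engrailed-1 with enough UMIs, none was counted as different in the epithelial-like cells (median ratio 0.838) or in cluster 7 (median 0.979).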

How the data were processed

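The authors aligned the reads to mm10 with Cell Ranger (names from the submitters' processing notes, versions not given in the sources used here) and deposited raw UMI counts by gene and barcode in 1 table a tumor, which pools 4 technical replicates. All deposited barcodes were used. The 7 genes and all gene lists were chosen with earlier results of these data known. Cells of each tumor were clustered with Seurat 5.3.0 in R 4.3.3 (log normalization to 10000, 2000 vst variable genes less the 7, 10 components, resolution 0.8). A marker counted in a cluster when seen in 10% of its cells and at 25% of the level in the highest cluster. A class needed 3 markers, and a cluster with 60% of another class's markers got none. Scrublet (scanpy 1.11.5) called 0 and 9 (0.587%) doublets, and none was removed. Levels are UMIs scaled to a group total of 1000000 with exact Poisson intervals, and shares have exact binomial ones. A count of 0 allows up to 3 counts. The depth behind a level is the group's UMI total, and a group of few cells has a wide interval. Shares of cells were also read after thinning each cell to 2500 (medium) or 500 UMIs (large). With 1 tumor a size no p-value was computed. A few items of the lists and of the genotype are not reported here. The ratio step was checked on simulated data for the 11145 genes of the comparison of epithelial-like with other cells in the medium size tumor, where 98.3% of 173 genes changed 4-fold were recovered and 1.09% of unchanged genes were called. The simulated sums were Poisson draws without variation between cells or clusters, and the planted change was above the threshold of 2. The check therefore shows that the step runs as written and does not measure the error of calls in the real data. Genes named are the 7, genes of the fixed lists, the leading genes of clusters (10 a cluster, ranked by fold over the tumor's remaining cells after adding 10 CPM, and seen in 25% of the cluster's cells), and the 5 most like each of the 7 genes with 100 or more UMIs, among genes with 200 or more. Genes beside Hmga2 and En1 on the chromosome, and genes of the classes' marker lists, were named outside this rule. Calculations used Python 3.11.15, numpy 2.4.6, scipy 1.17.1 and pandas 2.3.3, and TMM factors came from edgeR 4.0.16. Alternatives were other resolutions, 20 components, other added values, thinning, removal of likely doublets or of the cells highest in a gene, and classing each cell by its own markers.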

Additional observations from a re-analysis of the deposited data

How the results depend on the processing

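Values here have 1 UMI added to each sum. The number of the 7 genes counted as higher was within 1.5 times its main value in 37 of 48 alternative settings. Only the number was compared, so a setting could count other genes and still be among the 37. It was 4 for epithelial-like over other cells in the medium size tumor, and became 0 without the 5% highest Scrublet scores and 2 with 10 CPM added. It was 4 in the large size tumor, and became 0 at resolution 1.2, 0 without the 5% highest Scrublet scores, 0 with each cell classed by its own markers, 2 over genes with 50 or more UMIs and 2 without the 10 cells highest in the gene. For cluster 7 it was 3, and became 1 with 10 CPM added. The genes counted also changed with cells thinned and with cluster 2 in place of cluster 7. Without the highest Scrublet scores cluster 7 had no class, so another cluster took its place in that comparison. Between the tumors it was 1, and became 3 at resolution 1.2, 0 with 10 CPM added and 3 with cells thinned (Hmga1, Igf2bp3 and En1). The direction of a ratio counted as higher or lower turned in 14 values. Ratios not counted could cross 1 as well, as Igf2bp3 did in the large size tumor (0.435 to 1.72). Without the highest Scrublet scores, Hmga2, Igf2bp1 and Igf2bp2 were at 0.471, 0.506 and 0.901 in the medium and 0.397, 0.928 and 0.850 in the large size tumor, with En1 at 0.953 there. At resolution 1.2 they were at 0.454, 0.876 and 0.830 in the large size tumor, with En1 at 0.820. In these settings the clusters highest in Hmga2 lost the epithelial-like name by construction, since they kept 2 markers. Igf2bp1 was at 0.935 with each cell of the large size tumor classed by its own markers, at 0.503 in the cluster highest in Hmga2 without the highest Scrublet scores, and at 0.4003 with cluster 2 in place of cluster 7. The alternatives without clusters 1, 7 or 4, 6 and 9, and with cluster 2, were chosen after seeing the data. TMM factors were 1.06 and 0.945. No paired analysis was possible because the technical replicates are pooled in 1 table for each tumor, so no replicate could be left out either. In the large size tumor, with fewer cells and fewer UMIs a cell, Igf2bp1, Igf2bp3 and En1 have only 16 to 34 UMIs, which limits what can be read from them.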

Other observations

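H19, a maternally expressed fetal RNA and a known partner of IGF2BP proteins, was found mainly outside the medium size tumor's epithelial-like cells, with 21 UMIs there (9.48 CPM) against 11 UMIs (0.608 CPM) in epithelial-like cells. Its imprinted neighbour Igf2 had 4 UMIs (1.81 CPM) and 32 UMIs (1.77 CPM). In the large size tumor H19 and Igf2 had 1 UMI each. Both have fewer than 50 UMIs and were left out of the counts of genes called different.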
